A study of Mus musculus with 19 samples.

Results

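Chromatin accessibility around the genes of 4 C/EBP transcription factors, Cebpa, Cebpb, Cebpd and Cebpg, was followed in mouse neural stem cells that differentiated into astrocytes with or without tumor necrosis factor (TNF). A peak was assigned to a gene when its centre lay in the gene body or within 50 kb of either end, with gene ends from RefSeq (GRCm38.p6). This rule took 33 of the 90154 peaks in the table, each 500 bp long. There were 7 peaks around Cebpa, 10 around Cebpb, 6 around Cebpd and 12 around Cebpg, and 2 peaks between Cebpa and Cebpg counted for both genes. The measurements came from ATAC-seq, in which a transposase inserts sequencing adapters into open DNA, and are given as normalised reads per peak. All cells were wild type C57BL/6J and were isolated from ventricular zones of E14 embryos (embryonic day 14). Neural stem cells grown with EGF as floating neurospheres (NSPs) gave 3 libraries. Cells differentiated in serum, which replaced the EGF medium, gave 3 libraries at 24 h, 3 at 72 h and 4 at 1 week. Cells differentiated in the same serum medium with TNF at 50 ng/ml gave 3 libraries at 24 h and 3 at 72 h. No group of 1 week with TNF was analysed here. Plates for differentiation were coated, and the methods given for ATAC-seq name no sorting step.

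C/EBP proteins are basic leucine zipper factors that bind DNA as dimers with each other or with other basic leucine zipper proteins. Cebpb and Cebpd encode activators that are known to be induced by inflammatory cytokines and to drive acute phase genes, among them complement genes of reactive astrocytes. Cebpa encodes an activator best known for its part in myeloid, fat and liver cell differentiation. Cebpg encodes a short family member without a strong activation domain, which acts mainly as a dimer partner.

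The promoters of Cebpa, Cebpb and Cebpg, from 250 bases before to 50 bases after the gene start, are shown because the peak nearest to each gene start lies on them. The sequences are from RefSeq (GRCm38.p6), are written 5′ to 3′ on the strand of the gene, and 3 of the 4 genes matched an entry. Capitals mark matches to the motifs searched, on either strand.
Cebpa promoter, chr7:35119043-35119342, plus strand: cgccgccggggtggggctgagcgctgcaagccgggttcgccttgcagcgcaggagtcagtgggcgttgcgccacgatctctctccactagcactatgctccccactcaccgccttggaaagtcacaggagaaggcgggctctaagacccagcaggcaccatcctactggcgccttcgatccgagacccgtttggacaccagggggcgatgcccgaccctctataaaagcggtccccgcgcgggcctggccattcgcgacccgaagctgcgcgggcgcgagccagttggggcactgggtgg
Cebpb promoter, chr2:167688665-167688964, plus strand: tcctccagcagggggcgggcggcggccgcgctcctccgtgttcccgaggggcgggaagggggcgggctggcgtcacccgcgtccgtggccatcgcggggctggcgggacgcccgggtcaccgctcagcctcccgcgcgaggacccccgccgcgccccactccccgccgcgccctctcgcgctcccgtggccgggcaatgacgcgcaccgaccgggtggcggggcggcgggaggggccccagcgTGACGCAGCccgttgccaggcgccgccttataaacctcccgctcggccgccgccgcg
Cebpg promoter, chr7:35056517-35056816, minus strand: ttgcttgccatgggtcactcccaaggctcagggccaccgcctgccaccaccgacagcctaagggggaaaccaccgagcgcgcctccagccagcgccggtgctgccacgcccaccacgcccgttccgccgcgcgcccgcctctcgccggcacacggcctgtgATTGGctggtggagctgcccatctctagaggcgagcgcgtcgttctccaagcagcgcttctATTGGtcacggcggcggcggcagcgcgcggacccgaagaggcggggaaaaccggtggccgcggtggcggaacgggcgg
All 300 bases of the Cebpa and Cebpg promoters and 238 bases of the Cebpb promoter lay within a peak. GC content was 67.33% for Cebpa, 80.67% for Cebpb and 71.67% for Cebpg, against a median of 52.67% over 32851 mouse promoters. The Cebpb promoter held 1 match to the antioxidant response element (TGACNNNGC), 7 bases before the start, a motif found in 12.39% of the promoters. The Cebpg promoter held 2 CCAAT boxes (CCAAT), which read ATTGG on the strand of the gene, 89 and 28 bases before the start, and 37.41% of the promoters held one. Not matched in these 3 windows were the C/EBP motif (TTGCNNAA, in 10.8% of promoters), NF-kB (GGNNTTTCC, 5.82%), AP-1 (TGANTCA, 7.81%), CRE (TGACGTCA, 1.79%) and STAT (TTCNNNGAA, 8.3%). No matches overlapped. A match describes the letters and not a bound site.

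Reads in peaks per library ranged from 9640256 to 39349111, and all 33 peaks were among the 88919 that entered the tests, while 1235 others did not. The NSP libraries had 28636739 or more, and no other library had more than 25165008. At 24 h every TNF library (15764739 to 18780028) had more than every untreated one (11758938 to 15083087). The part of depth in these comparisons was not tested. NSP replicate 1 stood apart from the other NSP libraries. Without it the C/EBP peaks called at 24 h, 72 h and 1 week against NSPs numbered 18, 20 and 23, against 18, 20 and 22 with it. The names of the 10 libraries of 72 h and 1 week carry a tag that the 9 others lack. At 212 of the 90154 peaks every tagged library had 3 reads or fewer and every untagged library at least 20. None of these was a C/EBP peak, but so small a share cannot show that the tag spares these 33 peaks. Tag and group cannot be told apart where 72 h or 1 week is compared with NSPs, or 72 h with 24 h. The sample titles name all libraries astrocytes, the NSP ones included. The cell types given by the study were checked by peaks within 1 kb of an end of their marker genes. All 6 measured NSP markers, Hes5 and Nes among them, were lower at 24 h than in NSPs, or 5 of 6 under total-read scaling and loess offsets. Of all 13342 tested peaks within 1 kb of a gene end (gene-end peaks), 39.3% were called lower at 24 h and 6.27% higher. At 1 week 3 of the 6 NSP markers were still lower than in NSPs (4 under the 3 other scalings). Of the gene-end peaks, 27.6% were called lower at 1 week and 26.5% higher. Of 6 measured astrocyte markers, Gfap rose at 24 h against NSPs (log2 2.35 ± 0.22 (SE), limma-trend adjusted p = 6.36e-10), and S100b fell. Slc1a3 and Slc1a2 were also called lower, but not under total-read scaling or loess offsets. At 1 week 3 astrocyte markers (Gfap, Slc1a3 and Gja1) were higher and 2 lower than in NSPs, and the summed reads of the 6 (1161 to 1308) were below those of NSPs (1353 to 1507). Of 5 oligodendrocyte markers 2 had a peak, with summed reads of 1436 to 1755 in NSPs and 729 to 775 at 24 h. Of 8 myeloid markers only Spi1 had such a peak, with 174 to 320.1 normalised reads in the 19 libraries.

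A call is a Benjamini-Hochberg adjusted p under 0.05 in limma-trend, fitted to log2(normalised reads + 1) of all 19 libraries. Fold changes are on that scale, which understates changes of low peaks, and SE is the standard error of the log2 fold change. Cultures came from single brains, but the labels do not tie libraries to brains, so p-values measure the spread between libraries. In such bulk samples, fewer cells with an open site and less opening per cell cannot be told apart.

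The nearest peak of each gene is called here by its distance from the gene start, or for Cebpd, whose strand the tables used do not give, from its lower-coordinate end. At Cebpd (chr16:15887286-15889545) that peak, 62 bp before the gene, was highest at 24 h with TNF (1120.5 ± 69.4, SD, n = 3) and next at 72 h with TNF (927 ± 77.4, n = 3). Neither overlapped any other group. It was lowest at 72 h (495 ± 22.2, n = 3). At Cebpb (chr2:167688915-167690432) the peak 62 bp after the start also had its highest mean at 24 h with TNF (322 ± 22.3, SD, n = 3), but each group in the order overlapped the next, down to 234 ± 13.6 (n = 3) at 72 h. At Cebpg (chr7:35046422-35056566) the peak 66 bp before the start was highest at 1 week (835 ± 62.0, SD, n = 4), overlapping NSPs, and lowest at 72 h (523 ± 12.8, n = 3). At Cebpa (chr7:35119293-35121928) the peak 85 bp before the start was highest in NSPs (1201.8 ± 80.8, SD, n = 3), above every other library, and lowest at 72 h (647 ± 15.9, n = 3). These levels compare windows of equal length. The heat map shows all 33 peaks.

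**Figure D1:**
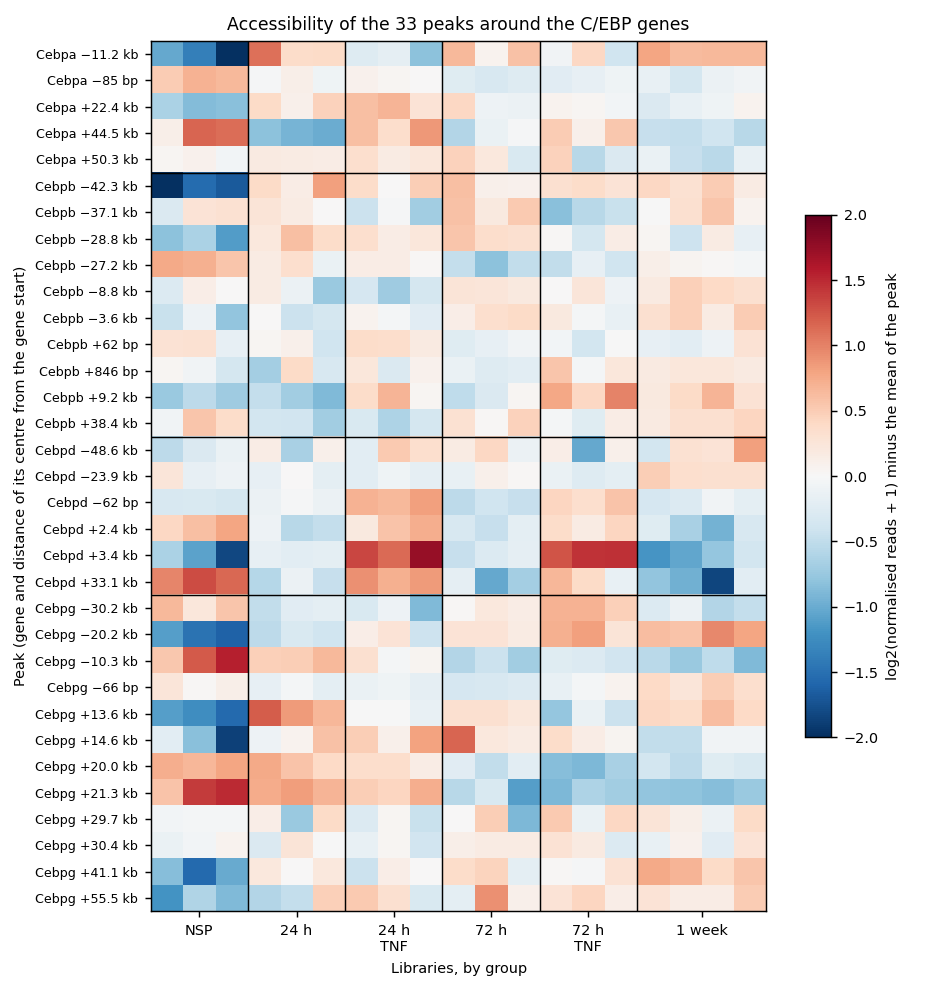
Heat map of log2(normalised reads + 1) minus the mean of the peak (colour scale, red higher, blue lower) for the 33 C/EBP peaks (rows, named by gene and distance from its start) in the 19 libraries (columns, by group). The Cebpd peaks at +3.4 kb and 62 bp before the gene are red in all TNF columns at 24 h and 72 h and blue or pale in all others.

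Cebpd had the most TNF calls of the 4 genes. With TNF, 4 of its 6 peaks were higher at 24 h and 3 of 6 at 72 h, and none was lower, while 7.06% and 6.24% of all tested peaks were called higher. The median log2 change of its peaks was 0.84 at 24 h and 0.77 at 72 h, against -0.03 and 0.03 over all tested peaks. At the peak 62 bp before the gene (chr16:15886974-15887474), the libraries had 631, 668 and 626 normalised reads at 24 h and 1102, 1062 and 1197 at 24 h with TNF. At 72 h they had 474, 518 and 495, and with TNF 916, 856 and 1009. In both pairs every TNF library was above every untreated library. The peak was 1.74-fold higher with TNF at 24 h (log2 0.80 ± 0.10 (SE), limma-trend adjusted p = 3.91e-06) and 1.87-fold higher at 72 h (log2 0.90 ± 0.10 (SE), limma-trend adjusted p = 6.82e-07).

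Without TNF this peak ranged from 474 (at 72 h) to 668 normalised reads (at 24 h). All 24 h libraries lay above the NSP libraries and all 72 h libraries below them. NSPs had 545, 548 and 535 normalised reads and the 1 week libraries 541, 561, 651 and 597. It was not called at 24 h (log2 0.24 ± 0.10 (SE), limma-trend adjusted p = 0.0563), at 72 h (log2 -0.13) or at 1 week (log2 0.11) against NSPs. It was lower at 72 h than at 24 h (log2 -0.37 ± 0.10 (SE), limma-trend adjusted p = 0.00829). The rise from 72 h to 1 week (log2 0.24 ± 0.10 (SE), limma-trend adjusted p = 0.0461) passed in 4 of 16 other settings, and its sign turned under total-read scaling and loess offsets.

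On the higher-coordinate side, 3 peaks had their centres within Spidr, a gene for a scaffold protein of DNA repair. The peak at +3.4 kb (chr16:15890471-15890971) had the largest TNF log2 changes of the 33. NSPs had 56.1, 41.0 and 23.9 normalised reads, 24 h 77.4, 75.2 and 76.4, 72 h 63.1, 71.8 and 76.5 and 1 week 37.9, 42.1, 50.6 and 67.6. With TNF the libraries had 222, 192 and 293 at 24 h and 211, 238 and 242 at 72 h, above all others. The log2 fold change with TNF was 1.59 ± 0.25 (SE) at 24 h (limma-trend adjusted p = 5.23e-05) and 1.70 ± 0.25 (SE) at 72 h (limma-trend adjusted p = 2.08e-05). It also rose without TNF, at 24 h against NSPs (log2 0.98 ± 0.25 (SE), limma-trend adjusted p = 0.00155), but was not called at 1 week (log2 0.34).

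The peak at +2.4 kb (chr16:15889438-15889938), whose centre lies 143 bp beyond the other end of the gene, fell on differentiation without TNF and less so with it. NSPs had 131, 149.8 and 170.1 normalised reads, 24 h 91.1, 66.4 and 70.2 and 24 h with TNF 112, 147 and 163. At 72 h the libraries had 78.5, 70.6 and 85.4, with TNF 126, 109 and 132, and at 1 week 82.9, 62.3, 50.6 and 78.3. All untreated differentiated libraries were below all NSP libraries, and the TNF libraries at 24 h overlapped NSPs, a comparison with no test here. It fell at 24 h against NSPs (log2 -0.98 ± 0.21 (SE), limma-trend adjusted p = 0.000255) and was higher with TNF at 24 h (log2 0.88 ± 0.21 (SE), limma-trend adjusted p = 0.00483). The call at 72 h (log2 0.64 ± 0.21 (SE), limma-trend adjusted p = 0.0394) was lost in 8 of 15 other settings, among them leaving out any of the 6 libraries.

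The peak at +33.1 kb (chr16:15920143-15920643) also fell and was less low with TNF. NSPs had 98.1, 124.4 and 111 normalised reads, 24 h 33.0, 45.7 and 35.7, 24 h with TNF 94.6, 81.9 and 90.3, 72 h 43.8, 23.9 and 30.6, 72 h with TNF 78.7, 65.0 and 44.4 and 1 week 28.2, 24.9, 13.2 and 42.9. Every untreated differentiated library was below every NSP library and every TNF library above the untreated libraries of its time. It fell at 24 h (log2 -1.53 ± 0.32 (SE), limma-trend adjusted p = 0.000229) and at 1 week (log2 -2.09 ± 0.30 (SE), limma-trend adjusted p = 4.05e-07) against NSPs. With TNF it was higher at 24 h (log2 1.21 ± 0.32 (SE), limma-trend adjusted p = 0.0113), a call lost without 24 h replicate 1, and not called at 72 h (log2 0.92 ± 0.32 (SE), limma-trend adjusted p = 0.0558).

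The 2 peaks on the other side of Cebpd had no TNF call. The peak at −48.6 kb lies in Prkdc and ranged from 19.2 to 71.8 normalised reads in the 19 libraries, with no call in any comparison. The peak at −23.9 kb lies 25 bp from an end of Mzt2 and was called only at 1 week (log2 0.38 ± 0.11 (SE) against NSPs, limma-trend adjusted p = 0.00399, and log2 0.38 against 72 h, the latter lost in 5 of 16 other settings). The plot of the 6 Cebpd peaks shows every library.

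**Figure D2:**
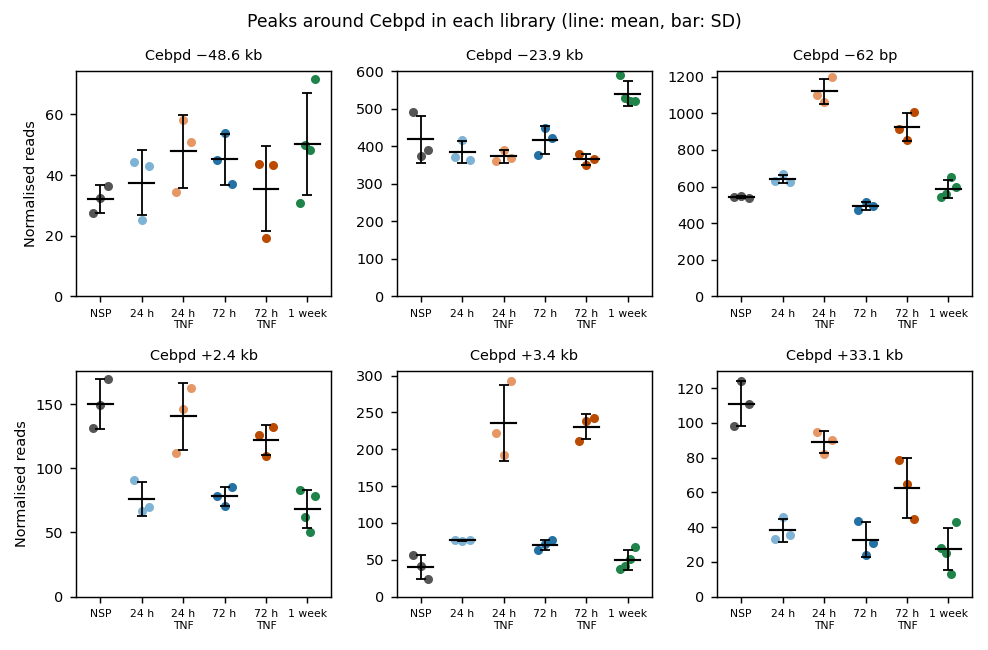
Normalised reads (vertical axes, from 0) of the 6 peaks around Cebpd in each library, by group (horizontal axes). Points are libraries, horizontal lines are means and bars are SD (n = 3, or 4 at 1 week), and at 62 bp before the gene and at +3.4 kb all TNF libraries lie above all untreated libraries.

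At Cebpb, the peaks on the gene itself were not called in any comparison, while peaks on either side of it were. The peak 62 bp after the start (chr2:167688727-167689227) had 269, 279 and 197 normalised reads at 24 h and 337, 332 and 296 with TNF, and 220.0, 233 and 247 at 72 h and 252, 202 and 260.4 with TNF. The groups did not overlap at 24 h, but the change missed the threshold (log2 0.39 ± 0.16 (SE), limma-trend adjusted p = 0.131, 95% interval 0.06 to 0.71). At 72 h the groups overlapped (log2 0.02, 95% interval -0.30 to 0.35), and the sign turned under 3 other scalings. The peak 846 bp after the start, of 52.4 to 124.3 normalised reads in the 19 libraries, had TNF log2 changes of 0.21 (95% interval -0.25 to 0.68) at 24 h and 0.45 (-0.02 to 0.92) at 72 h.

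The peak at +9.2 kb (chr2:167697817-167698317) lies in no annotated gene, 654 bp from an end of A530013C23Rik and 7635 bp from an end of Cebpb. It was higher with TNF at both times. NSPs had 56.1, 65.0 and 57.1 normalised reads, 24 h 67.2, 57.5 and 50.5, 24 h with TNF 121, 151 and 96.6, 72 h 65.6, 76.6 and 96.9, 72 h with TNF 161, 126 and 187 and 1 week 108, 123, 152 and 115. No TNF library was as low as any untreated library of its time. The log2 fold change was 1.05 ± 0.21 (SE) at 24 h (limma-trend adjusted p = 0.00115) and 0.98 ± 0.21 (SE) at 72 h (limma-trend adjusted p = 0.0022), and both calls held in all 15 other settings. It was also higher at 1 week than in NSPs without TNF (log2 1.04 ± 0.20 (SE), limma-trend adjusted p = 3.36e-05).

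The peak at −37.1 kb (chr2:167651573-167652073), within Tmem189, a gene for an enzyme of plasmalogen synthesis, went the other way. It had 368, 282 and 354 normalised reads at 72 h and 137, 167 and 181 with TNF, with no overlap, and 295, 276 and 246 at 24 h and 183, 241 and 152 with TNF, also with no overlap. It fell with TNF at 72 h (log2 -1.05 ± 0.18 (SE), limma-trend adjusted p = 0.000209), and the change at 24 h missed the threshold (log2 -0.52 ± 0.18 (SE), limma-trend adjusted p = 0.0604). The difference between the 2 times was -0.52 ± 0.26 (SE) (95% interval -1.04 to 0.00), which was not called (limma-trend adjusted p = 0.666).

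Against NSPs, 4 of the 10 Cebpb peaks were called at 24 h (47.2% of all tested peaks were), 4 at 72 h (59.3%) and 6 at 1 week (67.3%). The median size of their log2 changes, without sign, was 0.21, 0.37 and 0.51, below the 0.50, 0.67 and 0.80 of all peaks. Single distal peaks changed more. The peak at −42.3 kb (chr2:167646357-167646857), also within Tmem189, had 28.6, 43.3 and 39.2 normalised reads in NSPs and 169, 143 and 228 at 24 h, and between 129 and 196 in the 13 other libraries, with or without TNF. It rose 4.73-fold at 24 h (log2 2.24 ± 0.20 (SE), limma-trend adjusted p = 1.6e-10) and was still higher at 1 week (log2 2.13 ± 0.18 (SE), limma-trend adjusted p = 2.65e-11), while its TNF log2 changes were -0.17 (95% interval -0.57 to 0.24) and 0.05 (-0.35 to 0.45). The peak at −28.8 kb rose at 24 h (log2 1.25, limma-trend adjusted p = 5.22e-07), 72 h (log2 1.26) and 1 week (log2 0.76). The most open peak of the Cebpb window, at −27.2 kb, lies 132 bp from an end of Tmem189. It fell from 654, 637 and 566 normalised reads in NSPs to 277, 218 and 274 at 72 h (log2 -1.28 ± 0.13 (SE), limma-trend adjusted p = 1.93e-09), and 1 week libraries had 421, 404, 394 and 375, above 72 h (log2 0.64 ± 0.12 (SE), limma-trend adjusted p = 0.00016) and below NSPs (log2 -0.63). The peak at +38.4 kb was lower at 24 h than in NSPs (log2 -0.77, limma-trend adjusted p = 0.000134) and higher at 72 h than at 24 h (log2 0.75, limma-trend adjusted p = 0.000587). The peak at −3.6 kb rose at 72 h (log2 0.73) and 1 week (log2 0.81) against NSPs. That at −8.8 kb was called only at 1 week (log2 0.39, limma-trend adjusted p = 0.0424), and the call was lost in 10 of 16 other settings.

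**Figure D3:**
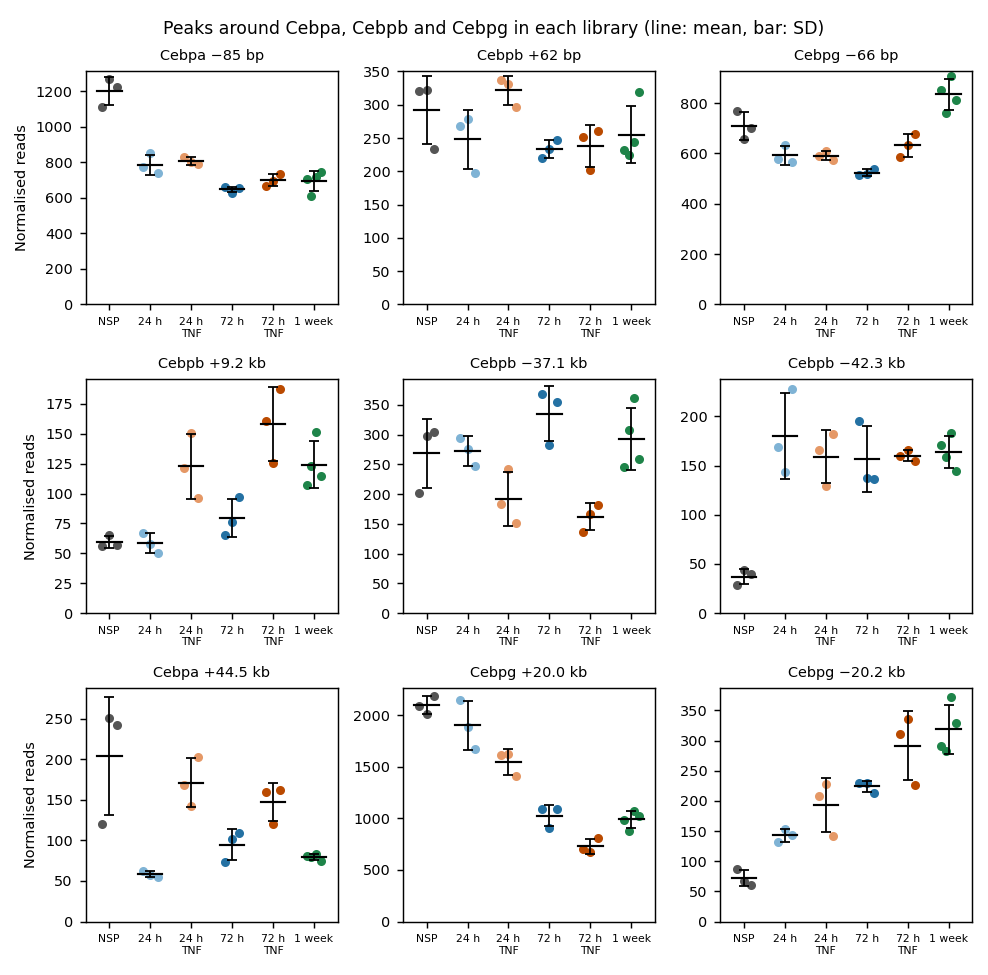
Normalised reads (vertical axes, from 0) in each library, by group (horizontal axes), of 9 peaks: the nearest peaks of Cebpa, Cebpb and Cebpg and 6 more distant ones. Points are libraries, horizontal lines are means and bars are SD (n = 3, or 4 at 1 week); at 24 h and at 72 h the TNF libraries lie above the untreated libraries of the same time at Cebpb +9.2 kb and Cebpa +44.5 kb and below them at Cebpb −37.1 kb.

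Around Cebpg, TNF calls were few and all were decreases: 1 of 12 peaks at 24 h and 2 of 12 at 72 h, where 3.53% and 5.55% of all tested peaks were called lower. The peak 66 bp before the start (chr7:35056382-35056882), which also lies in Gm45095, had 578, 633 and 564 normalised reads at 24 h and 589, 609 and 574 with TNF, with overlap (log2 95% interval -0.21 to 0.21). At 72 h it had 513, 519 and 538, and with TNF 587, 633 and 677, without overlap but also without a call (log2 0.27 ± 0.10 (SE), limma-trend adjusted p = 0.0924). Over time it had 768, 656 and 701 in NSPs and 853, 762, 909 and 814 at 1 week. It fell at 72 h against NSPs (log2 -0.43 ± 0.10 (SE), limma-trend adjusted p = 0.000763), a call lost under total-read scaling and loess offsets, and was higher at 1 week than at 72 h (log2 0.67 ± 0.10 (SE), limma-trend adjusted p = 6.47e-06), a call kept in all 16 other settings. Its small calls at 24 h (log2 -0.26, limma-trend adjusted p = 0.0428) and 1 week (log2 0.24, limma-trend adjusted p = 0.0338) against NSPs were each lost in 10 other settings. Of 13342 peaks within 1 kb of a gene end, 53.7% were called lower at 72 h than in NSPs and 54% higher at 1 week than at 72 h. Their median log2 changes were -0.39 and 0.39.

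The most open of all 33 peaks was at +20.0 kb from the Cebpg start (chr7:35036308-35036808), within Pepd, a gene for a dipeptidase. NSPs had 2089.5, 2013 and 2190.1 normalised reads, 24 h 2147, 1887 and 1676, 24 h with TNF 1615, 1621 and 1406, 72 h 1087, 906 and 1089.8, 72 h with TNF 699, 678 and 813 and 1 week 979.6, 882, 1074 and 1027. NSPs and 24 h overlapped, and the later groups were lower than both. It fell at 72 h (log2 -1.03 ± 0.11 (SE), limma-trend adjusted p = 5.75e-09) and 1 week (log2 -1.08 ± 0.10 (SE), limma-trend adjusted p = 2.98e-10) against NSPs, and with TNF at 72 h (log2 -0.49 ± 0.11 (SE), limma-trend adjusted p = 0.00356). At 24 h the TNF libraries were also below the untreated ones, but the change was not called (log2 -0.29 ± 0.11 (SE), limma-trend adjusted p = 0.0957). The neighbouring peak at +21.3 kb fell from 332, 589.8 and 631 in NSPs to 152, 181 and 103 at 72 h (log2 -1.81 ± 0.19 (SE), limma-trend adjusted p = 3.2e-09) and had no TNF call.

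The peak at +13.6 kb (chr7:35042693-35043193), also within Pepd, opened on differentiation and less so with TNF. NSPs had 26.9, 24.0 and 19.3 normalised reads, 24 h 137, 106 and 93.6 and 24 h with TNF 58.4, 58.2 and 53.0. At 72 h the libraries had 73.3, 73.0 and 68.8, with TNF 34.0, 53.2 and 43.2, and at 1 week 78.5, 75.6, 90.2 and 77.2. Every TNF library lay between NSPs and the untreated libraries of its time. It rose at 24 h against NSPs (log2 2.21 ± 0.23 (SE), limma-trend adjusted p = 5.23e-09) and was lower with TNF at 24 h (log2 -0.96 ± 0.23 (SE), limma-trend adjusted p = 0.00582) and at 72 h (log2 -0.73 ± 0.23 (SE), limma-trend adjusted p = 0.0353). Leaving out 24 h replicate 1 ended the call at 24 h, and leaving out any of 5 of the 6 libraries ended that at 72 h.

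The 2 peaks that lie in both the Cebpg and the Cebpa windows moved in opposite directions at 24 h and 1 week against NSPs. The peak at −20.2 kb from Cebpg (chr7:35076565-35077065) lies in no annotated gene and had 87.6, 67.4 and 61.1 normalised reads in NSPs, 132, 153 and 144 at 24 h, 229, 229.7 and 213 at 72 h and 291, 283, 372 and 329 at 1 week, with no overlap from group to group. The log2 change against NSPs was 1.00 at 24 h, 1.64 at 72 h and 2.14 ± 0.17 (SE) at 1 week (limma-trend adjusted p = 2.98e-12). TNF log2 changes were 0.40 at 24 h and 0.36 at 72 h, neither called. The peak at −30.2 kb fell at 24 h (log2 -0.78 ± 0.19 (SE), limma-trend adjusted p = 0.00124) and 1 week (log2 -0.84) against NSPs, but was not called at 72 h. Its mean normalised reads were 173 in NSPs, 99.9 at 24 h, 134.5 at 72 h and 96.1 at 1 week. With TNF they were 93.5 at 24 h and 191 at 72 h, and the TNF change was called at neither time. Nearer to Cebpg, the peak at −10.3 kb fell from 127, 206 and 259 in NSPs to 57.9, 64.6 and 53.5 at 72 h (log2 -1.68 ± 0.22 (SE), limma-trend adjusted p = 1.18e-07). The 5 remaining peaks lie within Pepd. Against NSPs, that at +41.1 kb was called higher at 24 h, 72 h and 1 week (log2 1.73 at 1 week). That at +55.5 kb was called higher at 72 h and 1 week (log2 1.17 at 1 week). That at +14.6 kb was called higher at 24 h and 72 h (log2 1.49 at 72 h) but not at 1 week. It was lower at 1 week than at 72 h, a call kept in 11 of 16 other settings. Those at +29.7 kb and +30.4 kb, with 31.9 to 126 normalised reads in the 19 libraries, had no call.

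At Cebpa, the promoter peak was lower in every differentiated group than in NSPs. The peak 85 bp before the start (chr7:35118958-35119458) had 1112, 1269 and 1224 normalised reads in NSPs, 772, 849.7 and 738 at 24 h, 659, 629 and 654 at 72 h and 708, 612, 719.6 and 744 at 1 week, and every differentiated library was below every NSP library. It was 1.53-fold lower at 24 h (log2 -0.61 ± 0.10 (SE), limma-trend adjusted p = 1.42e-05), 1.85-fold lower at 72 h (log2 -0.89 ± 0.10 (SE), limma-trend adjusted p = 1.7e-08) and 1.73-fold lower at 1 week (log2 -0.79 ± 0.10 (SE), limma-trend adjusted p = 2.53e-08). With TNF it had 832, 800.5 and 790.3 at 24 h and 667, 698 and 737 at 72 h, with log2 changes of 0.04 (95% interval -0.17 to 0.25) and 0.11 (-0.10 to 0.32), neither called. Against NSPs, 39.3% of the 13342 peaks within 1 kb of a gene end were called lower at 24 h, 53.7% at 72 h and 27.6% at 1 week. Their median log2 changes were -0.28, -0.39 and 0.01.

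The distal Cebpa peak at +44.5 kb (chr7:35163535-35164035), within Gm38988, was called with TNF at 24 h. NSPs had 120.3, 251 and 242 normalised reads, with replicate 1, the library that stood apart, the lowest, 24 h 62.6, 57.5 and 55.4 and 24 h with TNF 169, 142 and 203. At 72 h the libraries had 73.3, 102 and 109.6, with TNF 159, 119.7 and 162, and at 1 week 80.2, 79.5, 83.6 and 75.1. The TNF libraries did not overlap the untreated libraries of their time and overlapped NSPs, which was not tested. It fell at 24 h against NSPs (log2 -1.71 ± 0.22 (SE), limma-trend adjusted p = 2.95e-07, and -2.06 without NSP replicate 1) and was higher with TNF at 24 h (log2 1.52 ± 0.22 (SE), limma-trend adjusted p = 2.86e-05). At 72 h the TNF change was not called (log2 0.63 ± 0.22 (SE), limma-trend adjusted p = 0.0636). The difference between the times, -0.89 ± 0.32 (SE), was not called over all peaks either (limma-trend adjusted p = 0.533).

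At −11.2 kb, a low peak rose from 15.2, 11.8 and 5.98 normalised reads in NSPs to 69.5, 41.3 and 41.9 at 24 h (log2 2.16 ± 0.34 (SE), limma-trend adjusted p = 6.3e-06). It was lower with TNF at 24 h, at 26.5, 28.0 and 17.7 (log2 -1.03 ± 0.34 (SE), limma-trend adjusted p = 0.0486), a call lost in 8 of 15 other settings, among them leaving out any of the 6 libraries. The peak at +22.4 kb rose at 24 h (log2 1.09 ± 0.18 (SE), limma-trend adjusted p = 1.64e-05) and stayed higher at 1 week (log2 0.66), and that at +50.3 kb had no call.

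Counted over all 33 peaks, the shares called with time were near those of all tested peaks. At 24 h against NSPs, 18 were called (47.2% of all tested peaks were), 9 higher (24.2%) and 9 lower (23.0%). At 72 h, 20 were called (59.3%), 11 higher (28.3%) and 9 lower (30.9%), and at 1 week 22 were (67.3%), 13 higher (33.7%) and 9 lower (33.6%). From 24 h to 72 h, 11 were called (26.4%), 4 higher (12.0%) and 7 lower (14.3%). From 72 h to 1 week, 9 were called (38.7%), 6 higher (22.5%) and 3 lower (16.2%), a split that turned to 2 higher and 13 lower under total-read scaling, under which the median over all peaks was -0.31 (log2) in place of 0.02. Against NSPs, that median was 0.11 in place of -0.07 at 24 h and 0.21 in place of -0.06 at 72 h.

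With TNF at 24 h, 8 of the 33 peaks were called (10.6% of all tested peaks were), 6 higher (7.06%) and 2 lower (3.53%). The higher ones were 4 Cebpd peaks, Cebpb +9.2 kb and Cebpa +44.5 kb, and the lower ones Cebpg +13.6 kb and Cebpa −11.2 kb. At 72 h, 7 were called (11.8%), 4 higher (6.24%), of which 3 were Cebpd peaks and the other Cebpb +9.2 kb, and 3 were lower (5.55%). The median log2 change of the 33 peaks was 0.04 at 24 h and 0.00 at 72 h, against -0.03 and 0.03 over all peaks. Without 24 h replicate 1, the calls at 24 h fell from 8 to 5. The difference of the TNF effect between the times was not called at any of the 33 peaks by limma-trend, edgeR or DESeq2, and 0.00112% of all tested peaks were called by limma-trend. At an unadjusted p under 0.05, limma-trend gave 3 of the 33 C/EBP peaks and 6675 of all 88919 tested peaks. Summed reads at the 6 astrocyte markers were also lower with TNF, at 1148 to 1278 against 1404 to 1658 at 24 h and 1165 to 1237 against 1560.1 to 1671 at 72 h. At 24 h the median log2 change of the 6 was -0.39 and their smallest limma-trend adjusted p was 0.121, while 2 were lower at 72 h, Gfap and S100b. The 2 oligodendrocyte markers were higher in sum with TNF at 72 h (534 to 655 against 443 to 477), and 1 of them, Olig2, was called there, though not under total-read scaling or with loess offsets. The part of these markers in the results was not tested. The TNF plot sets the effects at both times side by side.

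**Figure D4:**
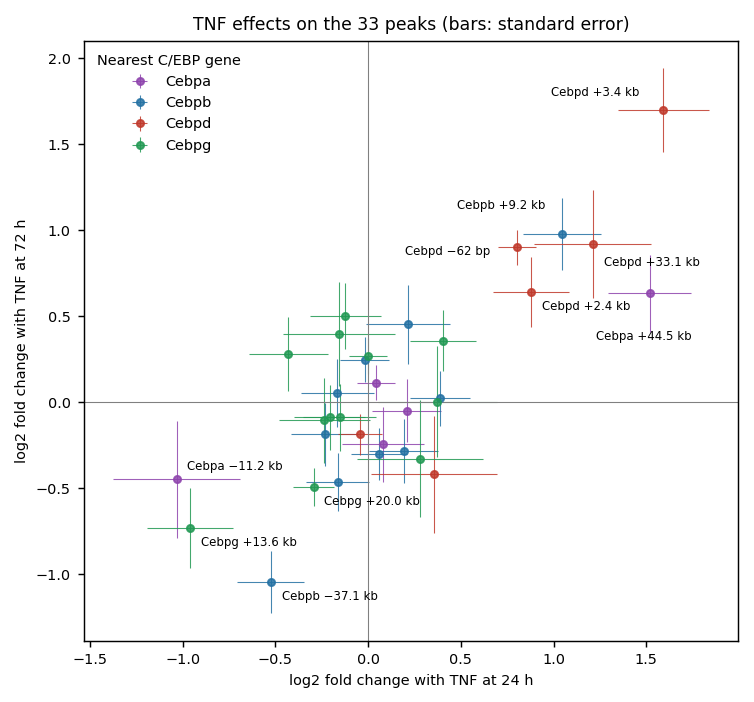
TNF log2 fold change at 24 h (horizontal axis) against that at 72 h (vertical axis) for the 33 C/EBP peaks, coloured by gene, with bars of 1 standard error. The Cebpd peak at +3.4 kb lies farthest to the upper right (1.59 and 1.70) and the Cebpb peak at −37.1 kb lowest (-0.52 and -1.05). Of the labelled changes, Cebpd +33.1 kb and Cebpa +44.5 kb (higher) and Cebpa −11.2 kb (lower) were called at 24 h but not at 72 h.

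Other genes of the pathway were followed by the most open peak within 1 kb of an end of each gene. They were read against all 13342 tested peaks within 1 kb of a gene end, not only the most open per gene. With TNF, 1.97% of these passed as higher and 0.854% as lower at 24 h, and 3.29% and 1.45% at 72 h. Among C/EBP target genes in inflammation, 9 of 14 had a peak. With TNF, 2 were higher at 24 h and 3 at 72 h, none was lower, and the median log2 change was 0.43 at 24 h and 0.36 at 72 h, against -0.04 and 0.12 over all gene-end peaks. C3, a complement component, rose at 24 h (log2 2.97 ± 0.36 (SE), limma-trend adjusted p = 1.42e-06) and 72 h (log2 2.31 ± 0.36 (SE), limma-trend adjusted p = 5.12e-05). Lcn2, a secreted lipocalin, rose at 24 h (log2 1.46 ± 0.42 (SE), limma-trend adjusted p = 0.0224) and 72 h (log2 1.53 ± 0.42 (SE), limma-trend adjusted p = 0.0151). Ccl2, a chemokine, was called at 72 h (log2 0.36), but not under total-read scaling, TMM or loess offsets. Il6 had log2 changes of 0.43 and 0.10, neither called.

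Among regulators of C/EBP genes or proteins, all 11 had a peak. With TNF at 24 h, 1 was called, Osmr, the oncostatin M receptor (log2 0.58 ± 0.19 (SE), limma-trend adjusted p = 0.0413). Total-read scaling called Osmr and Trib1, and loess offsets Trib1 alone, whose log2 change was 0.33 (limma-trend adjusted p = 0.0773). At 72 h, 3 were higher. Trib1, which directs C/EBP alpha protein to degradation, rose by log2 0.69 ± 0.12 (SE, limma-trend adjusted p = 0.000229). The NF-kB subunit genes Rela (log2 0.44) and Nfkb1 (log2 0.46) were also called, Nfkb1 not under total-read scaling or loess offsets. Stat3, the factor downstream of gp130 cytokines, had TNF log2 changes of 0.08 and 0.14, neither called. At 24 h against NSPs 6 of the 11 fell, or 3 under total-read scaling and 2 with loess offsets, where 39.3% of gene-end peaks were called lower. Among relatives and dimer partners, 8 of 11 had a peak. With TNF at 24 h their log2 changes lay between -0.19 (Hlf) and 0.50 (Batf3), and the smallest limma-trend adjusted p was 0.145. At 72 h 1 was called, Tef (log2 0.37), which was not called with loess offsets. Ddit3 (log2 -0.74), Atf4 (log2 -0.59) and Hlf (log2 -0.97), a stress-induced C/EBP relative, a stress factor and a PAR family factor, fell at 24 h against NSPs, as they did under the 3 other scalings. Tef (log2 -0.35) fell there too, but not under total-read scaling or with loess offsets.

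Across the 19 libraries, the gene-end peaks most like the nearest C/EBP peak in log2(normalised reads + 1), out of 13334 outside the 4 windows, were as follows. These correlations are descriptions over libraries that share group and scaling. For Cebpd they were Anxa5 (Pearson r = 0.92), Stk32a (0.92) and Nfkbia (0.91), the last an NF-kB inhibitor gene. For Cebpb they were lower, with Mfsd6 (r = 0.74), Myo18a (0.74) and Plscr4 (0.72). For Cebpg they were Tial1 (r = 0.98), Myh10 (0.97) and Map9 (0.97), and for Cebpa Cdh4 (r = 0.98), Adamts4 (0.96) and Dclk2 (0.95).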

How the data were processed

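Peaks, their values and the 19 library columns were taken from the 1 deposited table of 90154 ATAC-seq peaks (mm10), with coordinates as deposited. The submitters' processing notes name FastQC, Trim Galore, Bowtie2, SAMtools and MACS2, and the study's methods add removal of blacklisted regions and annotation with HOMER. The values are a signal per peak that the authors had normalised, by a step not given in the sources used here. Divided by the step of its library, each value was a whole number within 0.01 (100.0% in every library), so whole reads were recovered. These reads ranged from 9640256 to 39349111 per library over all peaks, which sets the precision, and were used for edgeR and DESeq2.

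Peaks were filtered with filterByExpr (minimum count 10), which kept 88919, and log2(value + 1) was fitted for all 6 groups with limma-trend (R 4.3.3, limma 3.58.1). P-values were adjusted over all tested peaks by the Benjamini-Hochberg method at 0.05, and intervals are 95% t intervals from the same fit. The fit was tested on simulated data. Alternatives were a pseudocount of 5, no filter, scaling by total reads in peaks, TMM, loess offsets, edgeR 4.0.16 quasi-likelihood, DESeq2 1.42.0, fits of the compared groups alone, a replicate block and leaving out each of the 19 libraries. Groups came from the sample labels. Replicate numbers did not pair the libraries.

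The 4 genes, their gene lists and the tests were chosen with earlier results of these data known. Peaks described in full were those in a gene or within 1 kb of its ends, the called peak with the smallest p per gene for 24 h and 1 week against NSPs and for TNF at each time, and the most open peak per gene. All other peaks, Cebpd +3.4 kb among them, were described after their values were seen. Gene names, gene ends and promoters came from RefSeq tables (GRCm38.p6), which held a promoter for 3 of the 4 genes.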

Additional observations from a re-analysis of the deposited data

Results flagged for a closer look

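In 2 of the 33 peaks, 1 library of the 1 week group lay far from the 3 others, by a gap that was 0.870 of the range of the group, above Dixon's 95% critical value for 4 samples. At Cebpd −23.9 kb, 1 week replicate 1 had 589.9 normalised reads and the others 520.1 to 529. At Cebpa −11.2 kb, the same library had 55.5 normalised reads and the others 49.9 to 50.6. Chance flags about 1 in 20 groups, and the 1 week libraries of all 33 peaks were examined in this way, while groups of 3 were not.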

How the results depend on the processing

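Of 946 other settings of the 62 named values, 852 left the direction and the side of the threshold as they were, 79 lost the call, 0 gained one and 15 turned the sign. The number of C/EBP peaks called, 18, 20, 22, 11, 9, 8 and 7 for 24 h, 72 h and 1 week against NSPs, 72 h against 24 h, 1 week against 72 h and TNF at 24 h and 72 h, ranged over the fits that left out 1 library from 15 to 18, 20 to 20, 20 to 23, 7 to 10, 4 to 8, 5 to 8 and 5 to 6. The low counts were 4 without 72 h replicate 1 for 1 week against 72 h, 5 without 24 h replicate 1 for TNF at 24 h, and 7 without 24 h replicate 2, 72 h replicate 2 or 72 h replicate 3 for 72 h against 24 h. A fit of only the compared groups gave 11 calls for TNF at 72 h (7 higher and 4 lower). Total-read scaling gave 15 calls for 1 week against 72 h (2 higher and 13 lower, where TMM and edgeR gave 3 and 5 and loess offsets 3 and 4), and splits of 11 and 7 for 24 h against NSPs, 15 and 8 for 72 h against NSPs, 5 and 5 (also TMM) for 72 h against 24 h, and 3 and 4 for TNF at 72 h. The cause was not tested.

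For 1 week against 72 h, the Cebpd peak 62 bp before the gene, called at log2 0.24, changed by log2 -0.10 under total-read scaling and -0.21 with loess offsets. For TNF at 72 h, the Cebpb peak 62 bp after the start changed by -0.055 under total-read scaling, -0.0059 with TMM, -0.017 with loess offsets and -0.046 to 0.14 in fits without a library. For TNF at 24 h, the ranges of such fits were -0.024 to 0.51 for the Cebpb peak 846 bp after the start (lowest without 24 h replicate 1), -0.0044 to 0.097 for the Cebpa peak 85 bp before the start (lowest without 24 h replicate 3) and -0.035 to 0.048 for the Cebpg peak 66 bp before the start, which changed by 0.0098 under total-read scaling and 0.022 with loess offsets. The replicate numbers are those of the sample titles, which conflict with the library names of 72 h with TNF (numbered 2 to 4), and libraries with the same number did not deviate together (correlations of -0.04 to 0.11), and a replicate block gave 17, 20, 20, 9, 8, 8 and 8 calls in the order above. Depth limits the low peaks, since a C/EBP peak held as few as 6 reads in a library.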
